A study of Mus musculus with 2 samples.

Results

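The Notch receptors, their ligands, the DNA-binding partner Rbpj and the Hes target genes were examined in mouse glioblastoma stem cells with and without an shRNA against Gli2. The 10 genes (Notch1, Notch2, Notch3, Dll1, Dll3, Jag1, Jag2, Rbpj, Hes1 and Hes5) were chosen by name and found on the array through the RefSeq accessions of its probes, which gave 12 probes for 10 of the 23784 genes that could be named. 8 of the genes had 1 probe each, and Rbpj and Hes5 had 2. Both groups were the same glioblastoma stem cell line, kept as neurospheres without serum, with EGF and bFGF added, and derived from mouse glioblastomas that a Sleeping Beauty transposon had induced de novo. The control cells stably carried a lentiviral non-target shRNA and the other cells a lentiviral Gli2 shRNA. Each group was measured on 1 array, so nothing below has a replicate check and no test across cultures could be made.

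Notch receptors are cut after they bind a Delta or Jagged ligand on a neighbouring cell, and the freed intracellular part enters the nucleus and joins Rbpj, which sits on DNA at the target genes. Without the receptor part, Rbpj recruits corepressors, and with it coactivators of the Mastermind family. In neural stem cells the best known targets are Hes1 and Hes5, bHLH repressors that hold back proneural genes. Gli2, the zinc finger factor targeted by the shRNA, carries Hedgehog signals to target genes.

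The regions before the start sites are shown for the 3 genes on which the results turn: Hes5, a target gene of Rbpj, Rbpj itself and the ligand gene Jag2. Each is the 250 bases before the annotated start from RefSeq on GRCm38.p6, written 5′ to 3′ on the strand of the gene. Capitals mark GTGGGAA, the core letters bound by Rbpj, on either strand. The Hes5 region is chr4:154960673-154960922 on the plus strand, and the Rbpj region is chr5:53590096-53590345 on the plus strand, before the first of the 2 starts in the table. The Jag2 region is chr12:112929496-112929745 on the minus strand.
Hes5: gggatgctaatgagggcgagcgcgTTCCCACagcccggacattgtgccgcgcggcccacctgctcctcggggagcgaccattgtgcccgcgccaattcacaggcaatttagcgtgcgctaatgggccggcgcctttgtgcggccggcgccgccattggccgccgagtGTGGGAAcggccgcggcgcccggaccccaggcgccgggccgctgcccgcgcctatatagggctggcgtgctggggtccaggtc
Rbpj: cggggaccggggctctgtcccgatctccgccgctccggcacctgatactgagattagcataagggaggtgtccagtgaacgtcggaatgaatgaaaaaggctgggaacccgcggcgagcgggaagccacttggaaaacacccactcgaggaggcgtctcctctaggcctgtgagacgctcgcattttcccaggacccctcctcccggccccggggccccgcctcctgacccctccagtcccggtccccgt
Jag2: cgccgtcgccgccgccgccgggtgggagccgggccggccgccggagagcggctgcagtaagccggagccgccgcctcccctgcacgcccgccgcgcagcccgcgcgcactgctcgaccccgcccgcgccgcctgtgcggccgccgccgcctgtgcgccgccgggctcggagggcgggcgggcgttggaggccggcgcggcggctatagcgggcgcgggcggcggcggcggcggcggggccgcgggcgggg

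The Hes5 region held GTGGGAA at 2 places, on the opposite strand 226 to 220 bases before the start and on the same strand 83 to 77 bases before it. At least 1 such match was present before 5.42% of the 32851 starts in the table and 2 or more before 0.161% of them (53 starts). Of the 9 Notch genes with a listed region (all but Hes1), Hes5 was the 1 with a match. The N box CACNAG, a site described for Hes proteins, was present for 3 of the 9 genes (Notch1, Notch2 and Notch3), against 36.7% of all starts. CACGNG, another Hes site, was present for 4 (Notch2, Notch3, Dll1 and Jag1), against 23.5% of all starts. All motifs were searched on both strands, and CACGAG, which fits both Hes motifs, was counted under each, as in the Notch3 region. A gene was counted if any of its starts had a match, and the 9 genes have 11 starts. The counts of genes and the shares of starts are therefore not in the same unit. The Gli consensus GACCACCCA was present for none of the 9, against 0.225% of all starts. The regions of Rbpj and Jag2 held none of these 4 motifs. A match or its absence describes letters in this window and was not tied to binding.

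The shRNA target was checked first. The background-subtracted (processed) signal of Gli2 was 98.1 in control cells and 57.9 in Gli2 shRNA cells. After scaling, this was 48.7% of the control level, a log2 difference of -1.04 ± 0.22 on its 1 probe, and -0.64 after normexp background correction. Here and below, differences are log2 signals of the Gli2 shRNA cells less those of the control, each relative to the 75th percentile of its own array (a signal of 329 for the control and 399 for the knockdown). Because the Gli2 shRNA array was the brighter, an equal raw signal is a scaled difference below 0. The ± value is the error that the scanner software gave for both spots, which covers the spot and not the culture. With median scaling in place of the 75th percentile, the median difference of all genes was 0.14.

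The labelled cell type was checked against marker genes. Of 9 neural stem cell markers, 8 had a probe well above background on each array, without Prom1 in control cells and Nr2e1 in Gli2 shRNA cells. The 7 measured on both arrays had a median difference of -0.06 and ran from -0.23 to 0.47. Nr2e1 gave 27.2 in control cells and 15.4 in Gli2 shRNA cells. Its bound of 2.14-fold lower equals the difference itself (-1.10 ± 0.44), and with normexp the difference was -0.41. Of 6 markers of pericytes and mural cells, in which Notch3 is also active, 1 (Acta2) was above background, and Pdgfrb, Rgs5, Kcnj8, Abcc9 and Cspg4 were not. Of 7 endothelial markers 2 were (Pecam1 and Kdr), while Cdh5, Tek, Tie1, Cldn5 and Flt1 were not. Of 7 microglial and macrophage markers, 4 were above background in control cells and 3 in Gli2 shRNA cells, without Cx3cr1, Ptprc and C1qa. Aif1 was so in control cells alone. On their brightest probes Itgam gave 4694 in control and 5413 in Gli2 shRNA cells, Csf1r 390 and 432, and Cd68 344 and 398. Neuronal markers were above background for 6 of 6 genes, astrocyte markers for 5 of 6 on each array, and oligodendrocyte markers for 4 and 5 of 6. The 4 astrocyte markers measured on both arrays had a median difference of -0.33 and ran from -0.62 to -0.12 (Aqp4). Other Aqp4 probes measured on both arrays gave -0.96 and 0.33. Gfap was above background on a different probe on each array, with differences of -0.64 and 0.70. The 4 oligodendrocyte markers had a median of -0.37 and ran from -0.60 to 0.17. The 6 neuronal markers had a median of -0.04 and ran from -0.93 (Dcx, with 2.75 on its other probe) to 0.74 (Tubb3). The part of these cell types in the values below was not tested. In bulk RNA of this kind, fewer cells of a type and less RNA per cell cannot be told apart.

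Of the 10 Notch genes, all were measured on both arrays, meaning that the software marked a probe as well above background on each. Rbpj was lower and Jag2 higher by at least 2-fold in Gli2 shRNA cells, and the other 8 lay within 2-fold. That is 2 of 10 genes past 2-fold, where 3.63% of the 14563 genes measured on both arrays were (1.84% higher, 1.79% lower). By probes it was 2 of 11 measured on both arrays, against 3.19% of all such probes. The genes were chosen with results of these data known, so the counts describe these 10 genes and are no evidence that the pathway stands apart. 6 genes lay above 0 and 4 below, and their median difference was 0.12, with a median of -0.01 over all measured genes. They lay on both sides of 0.

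**Figure D1:**
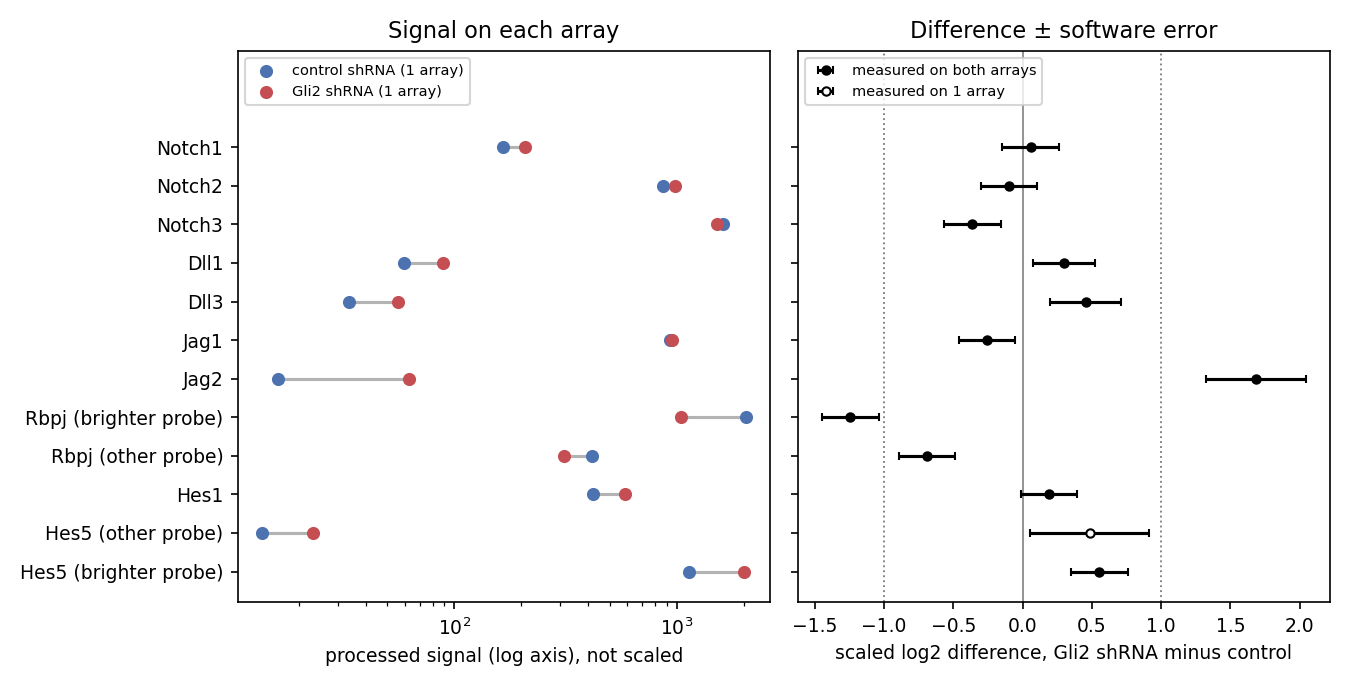
Left, processed signal (log axis, before scaling) of each Notch gene probe on the control array (blue) and the Gli2 shRNA array (red); levels of different probes are not comparable. Right, scaled log2 difference with the software error of both spots as bars, dotted lines at 2-fold; Rbpj on its brighter probe (-1.24) and Jag2 (1.68) lie outside them.

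Of the 3 receptors, Notch1 and Notch2 had similar levels in both groups, and Notch3 was lower within 2-fold. Notch1, the receptor best known for keeping neural stem cells undifferentiated, had a signal of 165 in control cells and 208 in Gli2 shRNA cells (RefSeq NM_008714, chromosome 2), a difference of 0.06 ± 0.21. Notch2, which is also expressed in neural progenitors, gave 869 and 985 (NM_010928, chromosome 3). Its difference was -0.10 ± 0.20, and 0.04 with median scaling, so Notch2 has no settled direction. Notch3 gave 1605 and 1512 (NM_008716, chromosome 17). At -0.36 ± 0.20 it was the lowest of the receptors, 77.7% of the control level, and 12.9% of genes measured on both arrays had a difference as low or lower. For Notch1 and Notch2 the difference was smaller than the software error, and for Notch3 it was larger.

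The 4 ligands differed from each other. Jag1, a Jagged ligand of the neural stem cell niche, gave 935 and 948 (NM_013822, chromosome 2). These nearly equal raw signals were a difference of -0.26 ± 0.20 after scaling. Jag2, the other Jagged ligand, gave 16.1 in control cells and 62.9 in Gli2 shRNA cells (NM_010588, chromosome 12).

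The Jag2 difference of 1.68 ± 0.36 was 3.21-fold higher in the Gli2 shRNA cells, and 38 genes (0.261%) had a difference as high or higher. The control signal of Jag2 was close to the lowest signal that counted as well above background on that array (12.8), and its software error was the largest among the probes of these genes that were measured on both arrays. Of the 2084 genes measured on both arrays with a control signal under 50, 5.66% were higher by 2-fold or more. Normexp adds an equal offset to both arrays before scaling, which pulls the differences of dim probes toward a value below 0. Neurog2, Neurog3, Atoh1 and Neurod4 were well above background on neither array. They differed by -0.06 to 0.02 under the main setting and by -0.29 to -0.14 with normexp. With normexp Jag2 differed by 0.45 and was within 2-fold. The arrays were thus close on the Jag1 probe and far apart on the Jag2 probe under the main setting.

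The Delta-like ligands lay above 0 within 2-fold. Dll1, a ligand that activates Notch on neighbouring cells, gave 59.5 and 88.8 (NM_007865, chromosome 17), a difference of 0.30 ± 0.22. Dll3, an atypical ligand that does not activate Notch in neighbouring cells and is found in proneural gliomas, gave 33.5 and 55.7 (NM_007866, chromosome 7). Its difference was 0.46 ± 0.26, 137% of the control level, and 9.19% of genes were as high or higher. Both probes were dim, and with normexp the differences were 0.07 for Dll1 and 0.03 for Dll3.

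Rbpj was the lower of the 2 genes past 2-fold. Its brighter probe (NM_001277116, chromosome 5) gave 2041 in control cells and 1044 in Gli2 shRNA cells. The difference of -1.24 ± 0.20 was 42.2% of the control level, or 2.37-fold lower, and 133 genes (0.913%) had a difference as low or lower. Its other probe (NM_001359152) gave 416 and 313, a difference of -0.69 ± 0.20 or 62.0% of the control level.

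Both Rbpj probes were thus lower in the Gli2 shRNA cells, by more than the software error, and 1 of them was past 2-fold. The mean of both probes was -0.97, which is within 2-fold. Of the 8059 genes with a control signal of 500 or more, 1.03% were lower by 2-fold or more. With normexp the probes differed by -1.18 and -0.62, and Rbpj stayed past 2-fold, as 0.687% of all genes measured on both arrays were in that direction. The 2 probes carry the accessions of different Rbpj transcripts, and which transcripts each probe detects was not analysed here.

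**Figure D2:**
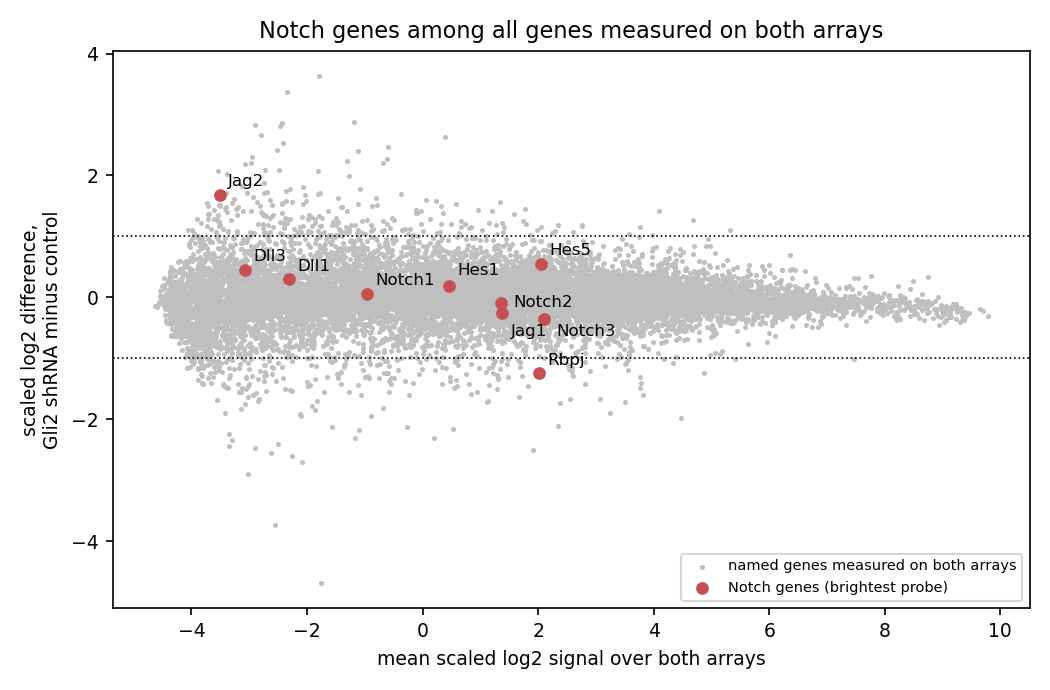
Scaled log2 difference (Gli2 shRNA minus control) against the mean scaled log2 signal of both arrays for the 14563 named genes measured on both (grey) and the 10 Notch genes on their brightest probe (red), dotted lines at 2-fold. Jag2 (1.68) lies at the dim end, where 5.66% of genes with a control signal under 50 are past 2-fold higher, and Rbpj (-1.24) at brighter signals, where 1.03% of genes with a control signal of 500 or more are past 2-fold lower.

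Both Hes genes lay above 0, where Rbpj lay below it. Hes1, a repressor induced by Notch that also responds to other signals, gave 422 in control cells and 583 in Gli2 shRNA cells (NM_008235, chromosome 16). Its difference was 0.19 ± 0.20. Hes5, the Hes gene most closely tied to Notch activity in neural stem cells, gave 1132 and 2014 on its brighter probe (NM_010419, chromosome 4).

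The Hes5 difference of 0.55 ± 0.20 was 147% of the control level, and 6.67% of genes were as high or higher. With normexp it was 0.58. The other Hes5 probe, of the same accession, gave 13.7 and 23.2 and was well above background in the Gli2 shRNA cells alone. On that probe Hes5 was 1.40-fold higher. The bound equals the difference itself (0.48 ± 0.43), so it is not a minimum. With normexp, which pulls dim probes toward a value below 0, the difference was -0.03. The Hes5 value thus rests on the brighter probe, within 2-fold, while Hes1 differed by less than the software error.

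The rest of the pathway was described by a list of 78 further genes in 8 roles, each by its brightest probe. 67 were measured on both arrays, 2 in the control alone, 1 in the Gli2 shRNA cells alone and 8 on neither. None of the 67 was past 2-fold, where 3.63% of all genes were. 44 lay above 0 and 23 below, and the median of the 70 measured genes was 0.06. No lower bound passed 2-fold either. With median scaling, Dtx3l (1.07), Egfl7 (1.02) and Numbl (1.004) were past 2-fold, and with cyclic loess Dtx3l (1.05) was.

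Among the other receptor and ligands, 5 of 7 genes were measured on both arrays and 4 lay above 0. Egfl7, a secreted protein of blood vessels that binds Notch, gave 827 and 1851, a difference of 0.89 ± 0.20. Cntn1, a neural cell adhesion protein reported as a Notch ligand, differed by 0.40 ± 0.20, and Notch4 by 0.19 ± 0.20. Dner, a neuronal membrane protein of the Delta type, went the other way, from 303 to 212, a difference of -0.80 ± 0.21. Dll4, the Delta ligand of endothelial cells, was not well above background on either array. Dlk1, a non-activating Delta-like protein, was measured in the control alone on its brighter probe (20.3 against 10.2). There it was at least 1.62-fold lower, a log2 bound of -0.70 with a software error of 0.61, and normexp gave -0.32. Its other probe, well above background on neither array, went the other way (1.66 ± 1.52).

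The enzymes that put sugars on the receptor lay close to 0, with 5 of 6 above it and a median of 0.14. Poglut1, which adds glucose, differed by 0.38 ± 0.20, and Lfng, a Fringe enzyme that changes which ligands a receptor answers to, by 0.36 ± 0.21. Lfng on its other probe differed by -0.43 ± 0.34, so it has no settled direction. Pofut1, which adds fucose, differed by 0.05 ± 0.20, and by -0.03 as the mean of its probes. Mfng, another Fringe enzyme, differed by -0.12 ± 0.20, and by 0.02 with median scaling.

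Of the 10 genes of receptor cleavage, 8 lay above 0 and 2 below. The lower ones were Adam10, the protease of the first cut after ligand binding (-0.55 ± 0.20, from 4095 to 3383), and Aph1a, a gamma-secretase subunit (-0.50 ± 0.20). The second Adam10 probe gave -0.52 and the 3 other Aph1a probes gave -0.63 to -0.51. Other gamma-secretase subunits lay above 0, with Ncstn at 0.43 ± 0.20 and Aph1c at 0.33 ± 0.20. The median of the role was 0.08.

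Of the 14 genes of endocytosis and ubiquitin ligases, 10 lay above 0, with a median of 0.07. Dtx3l, a ubiquitin ligase of the Deltex family, gave 29.1 and 67.1, a difference of 0.93 ± 0.26, and 0.28 with normexp. Numbl, a relative of the Notch inhibitor Numb, gave 801 and 1771, a difference of 0.87 ± 0.20, and 0.56 on its other probe. Neurl1a, a ligase that acts on ligands, was lower at -0.71 ± 0.20 (from 1081 to 802). Fbxw7, which marks the active receptor for breakdown, differed by -0.16 ± 0.20.

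**Figure D3:**
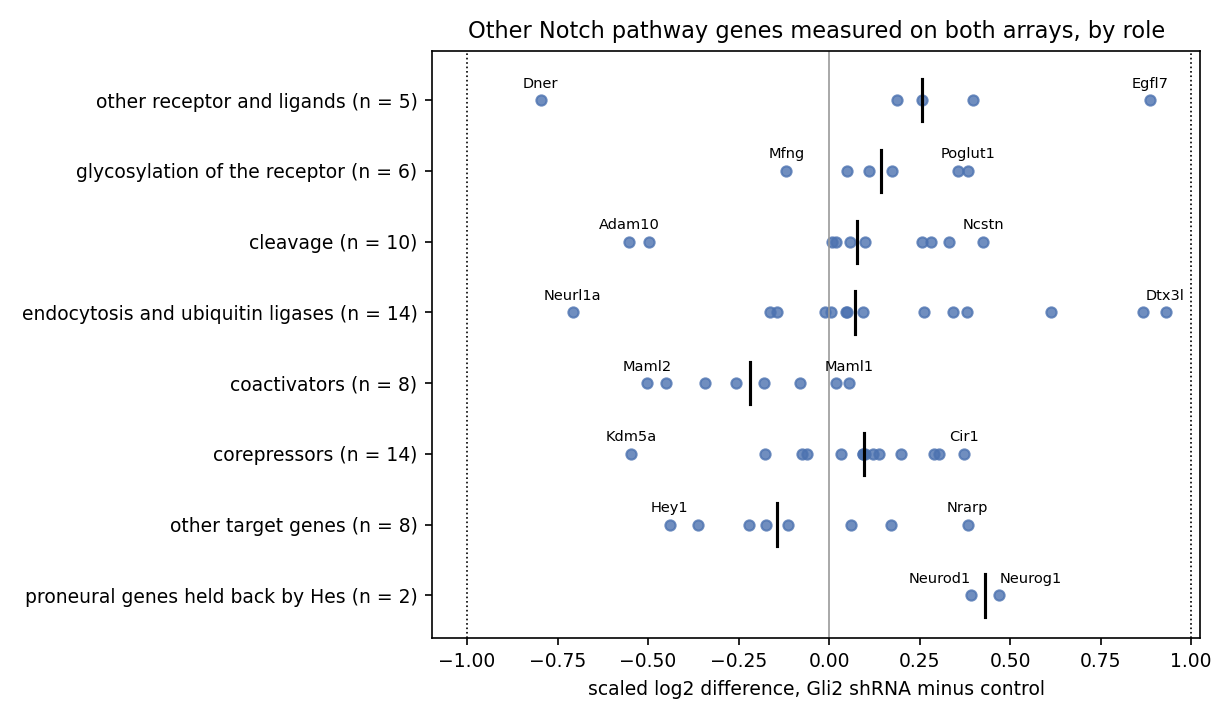
Scaled log2 difference (Gli2 shRNA minus control) of the 67 other Notch pathway genes measured on both arrays, 1 point a gene on its brightest probe, by role; black bars are role medians and dotted lines 2-fold. No point reaches 2-fold, and the coactivators have the lowest median (-0.22).

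The partners of Rbpj in the nucleus differed by role. Of 8 coactivators, 6 lay below 0, with a median of -0.22, which ran from -0.23 to -0.08 over the processing settings. Maml2, a Mastermind coactivator, differed by -0.50 ± 0.20, with -0.53 on its other probe, and the acetyltransferase gene Crebbp by -0.45 ± 0.20, with 0.08 on its other probe. Maml1 (0.05 ± 0.20) and the acetyltransferase gene Kat2b (0.02 ± 0.21) were near 0. Of 14 measured corepressors, 10 lay above 0, with a median of 0.10 (0.05 to 0.23 over the settings). Cir1, a corepressor that binds Rbpj, differed by 0.37 ± 0.20 and Tle2, a Groucho corepressor, by 0.30 ± 0.20. The histone demethylase gene Kdm5a (-0.55 ± 0.20) and Tle3 (-0.18 ± 0.20) lay below 0. The difference between coactivators and corepressors was not tested.

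Other target genes were also mixed. Of 8 measured on both arrays, 5 lay below 0, with a median of -0.14, which ran from -0.15 to -0.01 over the settings. Hey1, a Hes relative induced by Notch, gave 3540 and 3160, a difference of -0.44 ± 0.20. Nfkb2 differed by -0.36 ± 0.20 and by 0.16 on its other probe. Nrarp, a target and feedback inhibitor of Notch, gave 128 and 203, a difference of 0.38 ± 0.21, and 0.14 with normexp. Hes6, a Hes relative that counteracts Hes1, differed by 0.17 ± 0.20 and by -0.13 on its other probe. Hes3 was measured in the control alone, near background. Its log2 bound was -0.21 (1.16-fold lower), smaller in size than its log2 software error of 1.48. Hes2 was measured in the Gli2 shRNA cells alone, with 13.3 in control cells and 21.4 in Gli2 shRNA cells. Its bound of 1.33-fold higher equals the difference itself (0.41 ± 0.43). That difference was smaller than the software error, so Hes2 has no settled direction. With normexp, which pulls dim probes toward a value below 0, it was -0.12.

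Of 6 proneural genes that Hes proteins hold back, 2 were measured on both arrays and 4 (Neurog2, Neurog3, Atoh1 and Neurod4) on neither. Neurod1 gave 59.6 and 94.7, a difference of 0.39 ± 0.22, and 0.15 with normexp. Neurog1 gave 21.2 and 35.6, a difference of 0.47 ± 0.32. It was -0.05 with normexp, which pulls dim probes toward a value below 0.

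**Figure D4:**
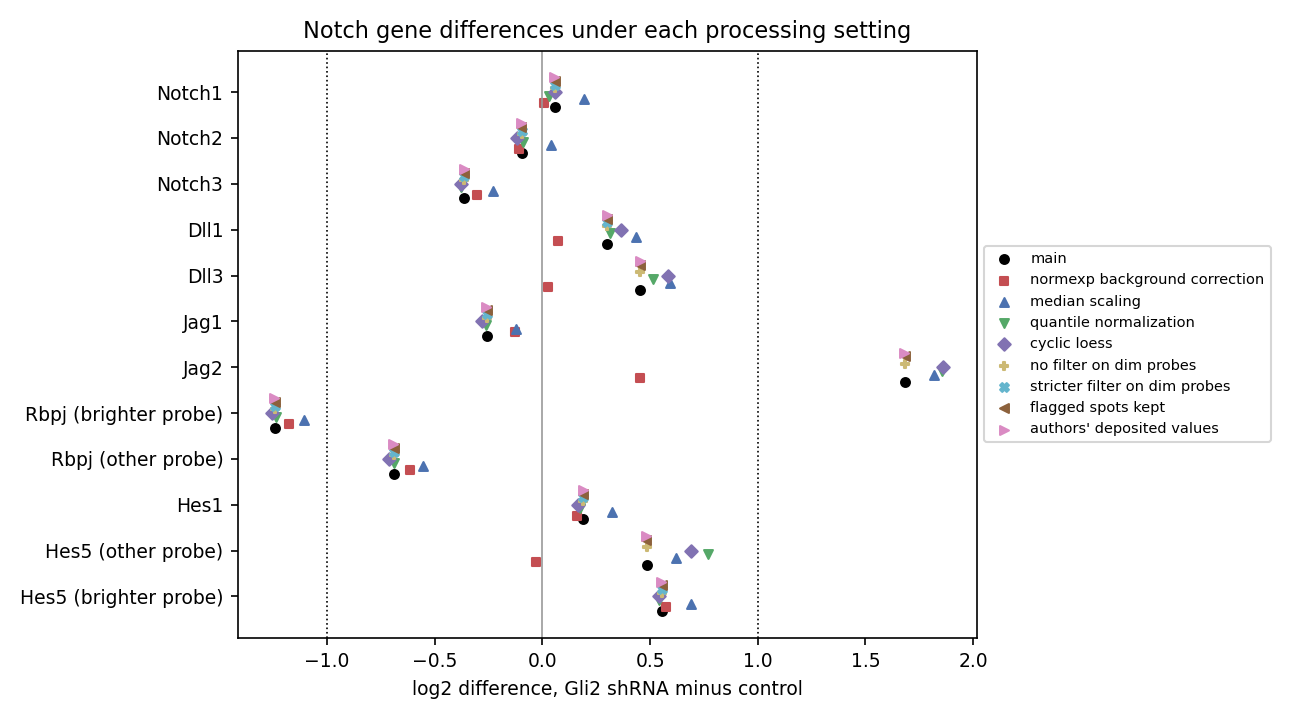
Log2 difference (Gli2 shRNA minus control) of each Notch gene probe under the main setting and 8 alternatives (7 for Dll3, Jag2 and the dim Hes5 probe, which the stricter filter leaves out), 1 marker a setting, dotted lines at 2-fold. Rbpj on its brighter probe stays between -1.26 and -1.11, whereas Jag2 runs from 0.45 with normexp to 1.86. The filters on dim probes cannot change a probe's difference, and median scaling, flagged spots kept and the authors' values shift all probes shown alike.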

How the data were processed

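Total RNA of 1 control and 1 Gli2 shRNA culture was labelled with Cy3 for 1-colour Agilent arrays, per the labels' protocols. The deposited scanner files hold the processed intensity of each spot, its error, the median and background intensities and flags from Agilent Feature Extraction 12.1.0.3 (design 074809, grid build mm9), per the file headers. The authors' deposited value table is on a log2 scale and equals the log2 processed intensity minus 1 constant per array, 8.36 and 8.64, with column medians of -3.55 and -3.69. Its centring is not stated, but its constants lie close to the log2 75th percentile signals of the main setting (329 and 399). Its differences were therefore close to those of the main setting (brighter Rbpj probe -1.246 against -1.243) and are no separate check.

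Control spots and flagged outlier spots (126 and 120) were left out, and no spot was saturated. Spots of a probe were averaged on the log2 scale (56595 probes) and scaled to the 75th percentile of the array. 33694 probes (59.5%) were well above background in control cells and 32334 (57.1%) in Gli2 shRNA cells, with lowest such signals of 12.8 and 15.2. For a probe measured on 1 array, a lower bound was computed by raising its dim value to that signal where it was below it. 34560 probes were named through the RefSeq gene table of GRCm38.p6. Genes with several probes were represented by the brightest.

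With 1 array a group there is no test: sizes and counts past 2-fold are given, and the number of arrays limits the precision. The 10 genes, the lists and the rules were chosen with earlier results of these data known. The genes named are the 10, Gli2, and in each role of the wider list up to 2 genes with the highest and 2 with the lowest differences, with any past 2-fold. Dll4, Dlk1, Hes2, Hes3, the proneural genes below background and the marker genes were named in addition, after their values were seen. Alternatives were normexp (offset 50), median scaling, quantile and cyclic loess normalization, no filter and a stricter filter on dim probes (signal of at least 50), flagged spots kept, the authors' values and the mean of probes. Normexp used the median spot intensity, where the mean had been planned. 1 gene of the wider list is not reported here and is left out of its counts. Scaling and the 2-fold rule were tested on simulated data with changes put into brighter probes only, and the lower bound on set values. Changes of dim probes and the normexp, quantile and cyclic loess steps were not tested in this way. R 4.3.3, limma 3.58.1 and Python 3.11.15 were used.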

Additional observations from a re-analysis of the deposited data

How the results depend on the processing

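With 1 array a group, no array could be left out, and no paired analysis was possible because a single array a group leaves nothing to pair beyond the comparison itself. The count of Notch genes past 2-fold, 2, was 1 with normexp, 1 with the stricter filter and 1 with the mean of probes. By probes, also 2, it was 1 with normexp and 1 with the stricter filter. Normexp and the stricter filter left Rbpj, and the mean of probes left Jag2. In the wider list the count of 0 was 3 with median scaling, 1 with cyclic loess and 2 without a filter (Dlk1 and Hes3, both measured on the control array only). The median of the Notch genes ran from 0.02 to 0.26 and that of the wider list from 0.03 to 0.19, both highest with median scaling. Of the 12 probes, Jag2 (0.45), Dll1 (0.07), Dll3 (0.03) and the dim Hes5 probe (-0.03) moved by more than their software error with normexp, and no other setting moved any probe that far. Signs were kept in all settings run, apart from Notch2 with median scaling (0.04) and the dim Hes5 probe with normexp. Normexp pulls dim probes toward a value below 0, so the sign of that Hes5 probe is not read as a reversal. The filters on dim probes keep or drop a probe and cannot change its difference. Median scaling, flagged spots kept and the authors' values shifted all 12 probes alike. Normexp, quantile and cyclic loess were thus the settings that could move probes apart. Over all genes, calls were 50.8% higher ones, 68.6% with median scaling, 40.1% with normexp and 27.0% without a filter on dim probes. Dim signals limit Jag2, Dll1 and Dll3.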
